A study of Bos taurus with 41 samples.

Results

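The genes described here are 9 members of the Wnt pathway chosen by symbol: the ligands WNT5A, WNT7A, WNT7B, WNT11 and WNT16, the secreted inhibitors DKK1, SFRP1 and SFRP4, and the membrane protein TMEM88. Of these 9 genes, 8 have a row among the 16149 genes of the conceptus table and 9 among the 27270 genes of the endometrial table. SFRP4 has no row in the conceptus table, which holds no gene with a mean count under 2.48. The samples were 41 bovine RNA-seq libraries made after 12 h of culture. In these tables IVP conceptuses grew from blastocysts produced in vitro and transferred to recipient heifers, IVD conceptuses came from artificial insemination with semen of the same bull, and both were flushed from the uterus on Day 16. Sections of these elongating conceptuses were laid on endometrial explants of cyclic, unbred Day 16 heifers (co-culture: 7 IVP and 9 IVD libraries) or kept without endometrium (mono-culture: 5 IVP and 8 IVD libraries), and 12 libraries were made from explants that had carried an IVP section.

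Wnt proteins are secreted, lipid-carrying signals that bind frizzled receptors, either with the co-receptors LRP5 and LRP6, which keeps beta-catenin in the cell to drive transcription, or with other partners such as ROR1 and ROR2, which acts on cell shape and movement. DKK1 binds LRP5 and LRP6, SFRP proteins are soluble proteins with a frizzled-like domain that bind Wnt ligands, and TMEM88 binds Dishevelled inside the cell and lowers beta-catenin signalling, as known from frog embryos and human cells. In the ruminant uterus, Wnt ligands and their inhibitors are made on both sides of the contact between the trophoblast, the outer layer of the conceptus that secretes interferon tau, and the endometrium.

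In all, 13 conceptuses gave the 29 conceptus libraries, and 11 of them (4 IVP, 7 IVD) were sampled in both cultures. A single recipient had carried both 62a and 62b. The 7 IVP co-culture libraries came from 4 conceptuses on 4 uteri and the 9 IVD co-culture libraries from 7 conceptuses on 6 uteri, so libraries of a group are not all independent. Total counts ran from 58583647 to 104436922 reads per conceptus library and from 24593699 to 84030248 per endometrial library. The labels fit the tissues: PGR, the progesterone receptor of the endometrium, ran from 43.9 to 101.5 CPM (the gene count scaled to the total count of its library) in endometrium and reached no more than 1.90 CPM in any conceptus library. FOXA2, another of the endometrial epithelium markers, went the other way, with medians of 21.8 to 33.2 CPM in the conceptus groups, against 8.78 CPM in endometrium. Those epithelial markers summed to 140.8 to 574.2 CPM in endometrium (7 genes with a row) and 6.70 to 73.6 CPM in conceptus (4 with a row). The summed trophoblast markers (10 genes, led by TKDP1) ran from 505 to 60570 CPM in conceptus and from 2.88 to 18.3 CPM in endometrium (8 of the 10 have a row there). The trophoblast sum therefore spanned a wide range among sections. It was lowest in IVD mono-culture replicate 1 (conceptus 5, 505 CPM), IVD co-culture replicate 5 (conceptus 50, 1887 CPM) and IVD mono-culture replicate 3 (conceptus 22, 2106 CPM).

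The tissue that carries each gene differed across the family. WNT5A (ENSBTAG00000020221), a ligand that mostly acts without beta-catenin, was an endometrial transcript: it ran from 6.99 to 100.2 CPM (median 24.5) in the 12 endometrial libraries, against 0.0211 to 5.84 CPM (median 0.345) in the 29 conceptus libraries, with no overlap. SFRP1 (ENSBTAG00000027625) had a median of 168.8 CPM (43.9 to 465.8) in endometrium, against 4.87 CPM (0 to 70.4) in conceptus, and the 2 ranges overlapped through a single conceptus library. WNT16 (ENSBTAG00000002940), a ligand known from mouse for its role in cortical bone, had a median of 7.12 CPM (4.12 to 22.6) in endometrium, against 0.224 CPM (0 to 9.23) in conceptus. In the 7 sections for which both tissues were sequenced from the same culture, WNT5A, SFRP1 and WNT16 were each higher in the endometrium in 7 of 7.

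The reverse order held for WNT7B and WNT11. WNT7B (ENSBTAG00000048365), a ligand needed in mouse for the joining of chorion and allantois, had a median of 1.82 CPM (0.391 to 6.78) in endometrium, against 8.96 CPM (0.488 to 22.1) in conceptus. WNT11 (ENSBTAG00000010820), another ligand that mostly acts without beta-catenin, had a median of 7.78 CPM (6.58 to 47.6) in endometrium, against 28.2 CPM (11.0 to 228.9) in conceptus. For both genes the endometrium was the lower tissue in every one of the 7 matched sections, although the ranges overlapped. TMEM88 (ENSBTAG00000014693) had a median of 9.82 CPM (5.37 to 18.0) in endometrium, against 25.8 CPM (3.81 to 246.4) in conceptus, and was higher in the endometrium in 1 of the 7 matched sections. For both WNT7B and TMEM88, 19 of the 29 conceptus libraries stood above every endometrial library.

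WNT7A and DKK1 overlapped more widely between the tissues. WNT7A (ENSBTAG00000001668), a ligand of the uterine epithelium in mouse, had a median of 1.09 CPM (0 to 16.7) in endometrium, against 2.98 CPM (0.180 to 14.4) in conceptus. It was higher in the endometrium in 1 of the 7 matched sections. Its count of 0 in endometrium replicate 7 allows up to 0.0595 CPM, a limit that covers counting error only. DKK1 (ENSBTAG00000014218) had a median of 3.31 CPM (0.796 to 15.0) in endometrium, against 7.02 CPM (0.0610 to 37.7) in conceptus, and was higher in the endometrium in 4 of the 7 matched sections. SFRP4 (ENSBTAG00000015366) ran from 0.677 to 14.1 CPM (median 5.91) in endometrium. The 2 tissues were aligned with different programs and carry different batch dates, so tissue and processing cannot be told apart and no test was made of these levels. In RefSeq's annotation of another build (ARS-UCD2.0), WNT5A and WNT11 each overlap a long non-coding RNA, whose reads cannot be separated from theirs if strand was ignored in counting.

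**Figure D1:**
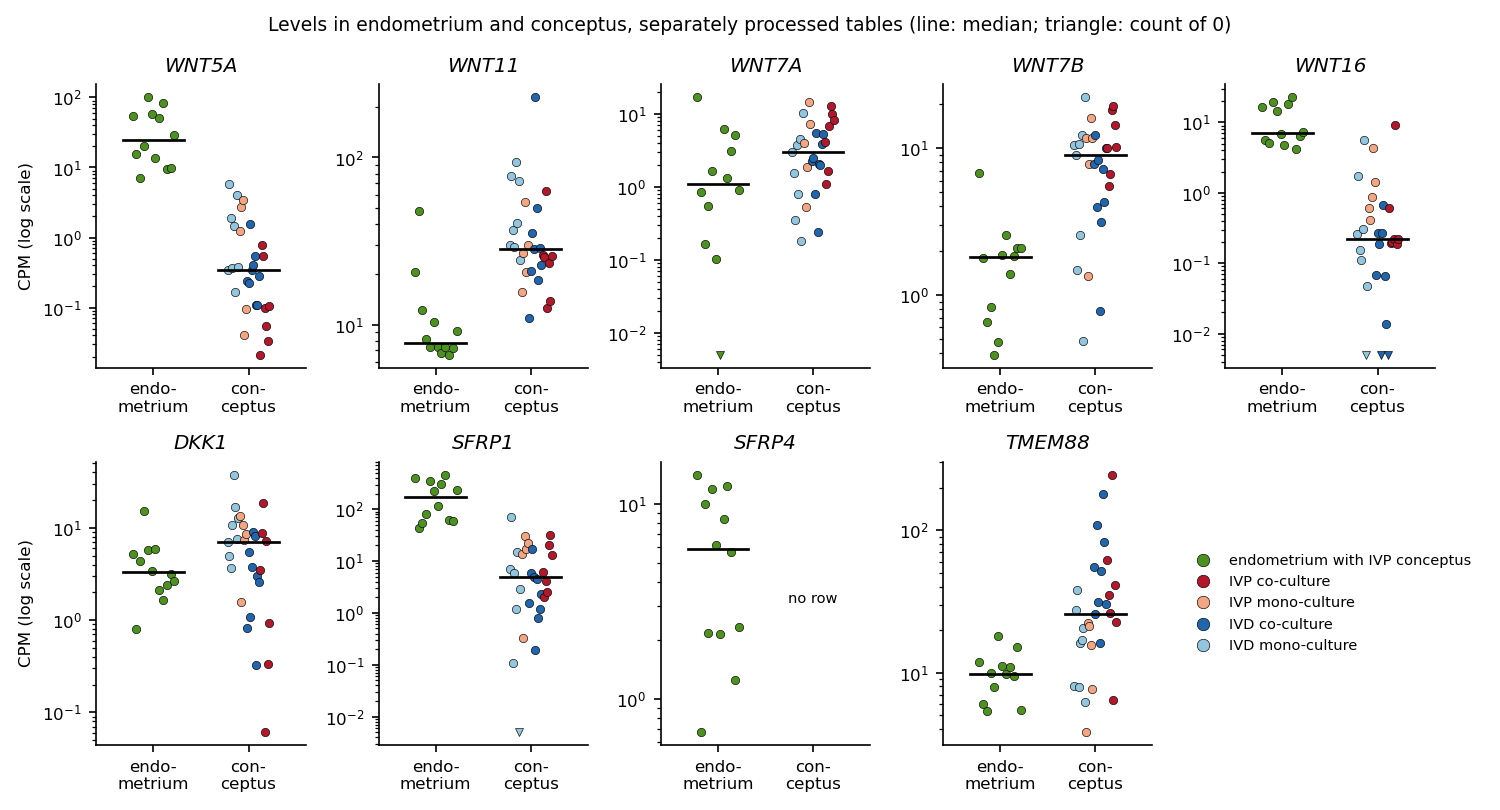
CPM of the 9 genes on a log scale in 12 endometrial libraries (left) and 29 conceptus libraries (right, coloured by culture group), each point a library and each line a median, with triangles for a count of 0. WNT5A shows 2 separate clouds, SFRP1 and WNT16 lie mostly higher in endometrium, WNT7B, WNT11 and TMEM88 mostly higher in conceptus, and SFRP4 has no row in the conceptus table.

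Among conceptus sections, WNT7A and WNT7B varied together with the trophoblast markers, and WNT5A ran the other way. After removal of culture group means, the log2 CPM of WNT7A and WNT7B had a Pearson r of 0.92 over the 29 libraries (Spearman 0.87). WNT7B had r = 0.94 (Spearman 0.88) and WNT7A r = 0.92 (Spearman 0.86) with the summed trophoblast markers, and without the 2 libraries farthest from the median of that sum these were 0.90 and 0.91. These are descriptions over libraries that share conceptuses and a common total, and in bulk tissue fewer cells of a type and less RNA per cell cannot be told apart.

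The lowest WNT7B values stood in the sections with the least trophoblast signal. The 4 libraries with the lowest trophoblast sums were also the 4 lowest for both genes. WNT7B was at 0.488 CPM in IVD mono-culture replicate 1, 0.781 CPM in IVD co-culture replicate 5, 1.47 CPM in IVD mono-culture replicate 3 and 1.35 CPM in IVP mono-culture replicate 2. WNT7A was at 0.180, 0.242, 0.351 and 0.531 CPM in the same order of libraries. In the other direction, both genes had a negative r with the summed hypoblast markers (7 genes with a row; WNT7B -0.73, WNT7A -0.74), the hypoblast being the inner lining layer of the conceptus.

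WNT5A had r = -0.73 with the trophoblast sum (Spearman -0.79; -0.80 without the 2 farthest libraries) and r = -0.76 with WNT7A. WNT11 had r = -0.54 with the trophoblast sum, which was -0.37 without the 2 farthest libraries, and 0.62 with the hypoblast sum. SFRP1 had r = 0.80 with the summed epiblast and mesoderm markers, which HAND1 dominates, 0.76 with the trophoblast sum (0.60 without the 2 farthest libraries) and 0.77 with WNT7B. TMEM88, DKK1 and WNT16 had weaker relations to the trophoblast sum, with r of -0.15, -0.03 and 0.31.

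**Figure D2:**
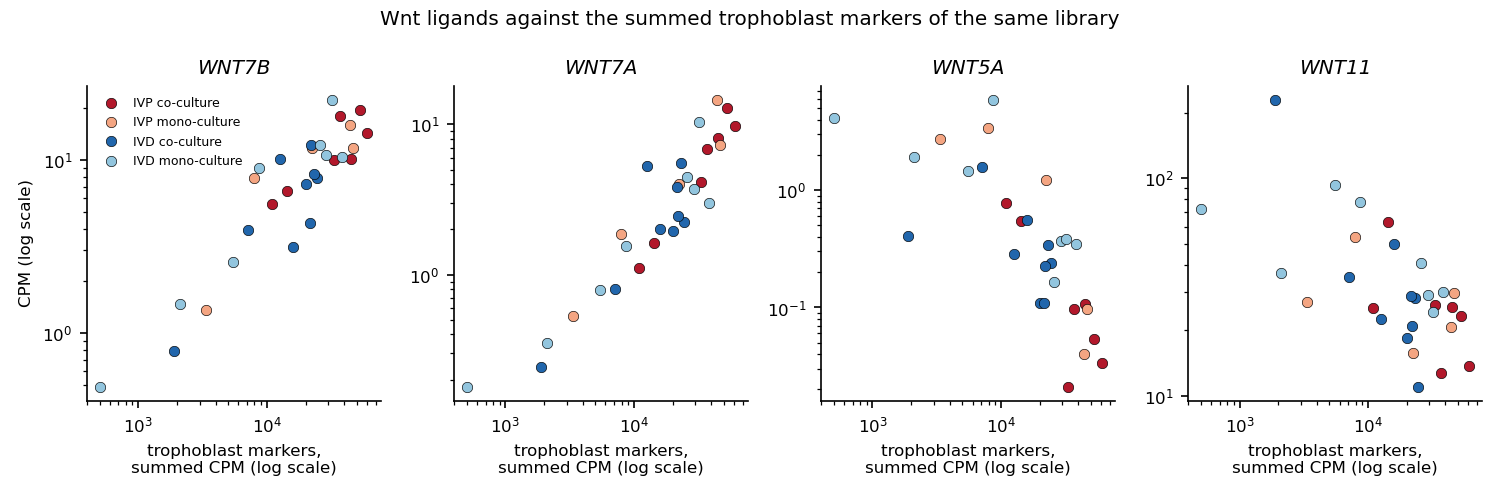
CPM of WNT7B, WNT7A, WNT5A and WNT11 (log scale) against the summed CPM of 10 trophoblast markers (log scale) in the 29 conceptus libraries, each point a library coloured by culture group. WNT7B and WNT7A are higher where the marker sum is higher (r = 0.94 and 0.92 after removal of group means), and WNT5A and WNT11 are lower (r = -0.73 and -0.54).

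Neither WNT7A nor WNT7B passed the edgeR test for an effect of endometrium. The exception among the alternatives was the average of both conceptus types with 1 factor of unwanted variation, where WNT7A had a log2 fold change of 0.72 (adjusted p = 0.0453), against 0.18 (adjusted p = 0.852) without that factor. WNT7B ran from 5.55 to 19.4 CPM (median 10.2) in IVP co-culture, against 11.7, 1.35, 15.9, 11.8 and 7.82 CPM in IVP mono-culture replicates 1 to 5. In IVD tissue it ran from 0.781 to 12.3 CPM (median 7.24) in co-culture, against 0.488 to 22.1 CPM (median 9.69) in mono-culture. WNT7A ran from 1.10 to 12.9 CPM (median 6.82) in IVP co-culture, against 4.03, 0.531, 14.4, 7.24 and 1.85 CPM in IVP mono-culture, and from 0.242 to 5.49 CPM (median 2.25) in IVD co-culture, against 0.180 to 10.3 CPM (median 2.26) in IVD mono-culture. Sections of one conceptus split evenly, with the mean CPM higher in co-culture in 5 of 11 conceptuses for both genes.

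Between conceptus types in co-culture, WNT7A had a log2 fold change (IVP over IVD) of 1.41 (SE 0.73; adjusted p = 0.398) and WNT7B of 1.10 (SE 0.58; adjusted p = 0.402). The trophoblast sum also lay higher there, with a median of 37180 CPM (10910 to 60570) in IVP co-culture, against 20060 CPM (1887 to 24600) in IVD co-culture, and its part in these values was not tested. With 1 factor of unwanted variation in the model, WNT7A had 1.41 (adjusted p = 0.0446).

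WNT5A was the only ligand that passed the edgeR test for an effect of endometrium, and it fell in co-culture when both conceptus types were averaged. It ran from 0.0211 to 0.782 CPM (median 0.0976) in IVP co-culture, against 1.227, 2.72, 0.0401, 0.0962 and 3.42 CPM in IVP mono-culture replicates 1 to 5. In IVD tissue it ran from 0.109 to 1.59 CPM (median 0.284) in co-culture, against 0.166 to 5.84 CPM (median 0.914) in mono-culture. The groups overlapped in both types, but the 3 highest mono-culture libraries of each type stood above every co-culture library of that type. The counts behind these levels are small, from 2 to 127 reads in co-culture and from 4 to 444 in mono-culture.

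Averaged over both types, the log2 fold change of WNT5A was -2.14 (SE 0.60; adjusted p = 0.0147), and it was -2.37 (SE 0.92; adjusted p = 0.184) in IVP and -1.92 (SE 0.77; adjusted p = 0.124) in IVD tissue alone. In that average, 18.9% of the 15942 genes tested passed a false discovery rate (FDR) of 0.05, with 9.16% higher and 9.69% lower, and of the 8 Wnt genes 1 was higher and 1 lower. The mean CPM of WNT5A was lower in co-culture in 9 of 11 conceptuses, most of all in conceptus 26 (0.167 CPM on endometrium, against 5.84 CPM without). The call did not hold when conceptus was a block (-1.28, adjusted p = 0.116) or without conceptus 26 (-1.79, adjusted p = 0.0529). The trophoblast sum, with which WNT5A varied inversely, had medians of 37180 CPM in IVP co-culture, against 22240 CPM in IVP mono-culture, and 20060 CPM in IVD co-culture, against 17360 CPM in IVD mono-culture. The summed stromal markers (3 of 7 genes with a row) had medians of 4.74 CPM in IVP co-culture, against 9.12 CPM in IVP mono-culture, and 3.28 CPM in IVD co-culture, against 10.1 CPM in IVD mono-culture. Their highest sums, 79.3 and 73.3 CPM, stood in sections kept without endometrium (conceptuses 23 and 5) and were mostly LUM (78.8 and 73.2 CPM). DCN, of the same list, was nearly level. Its medians were 0.729 CPM in IVP co-culture, against 0.853 CPM in IVP mono-culture, and 0.389 against 0.419 CPM in IVD tissue. PDGFRB, the third, had medians of 0.572 CPM in IVP co-culture, against 2.20 CPM in IVP mono-culture, and 0.481 against 1.99 CPM in IVD tissue. Of these stromal markers 1 of 3 was lower past the FDR in the same average, and WNT5A had r = 0.585 with their sum. Of the epiblast and mesoderm markers 2 of 5 were lower past the FDR there. EOMES, a gene of that list, was at 18.4 CPM in the mono-culture section of conceptus 26 and 9.37 CPM in that of conceptus 37. It was at 3.56 CPM in the co-culture section of conceptus 22 (WNT5A at 5.84, 3.42 and 1.59 CPM in the same order). In every other conceptus library EOMES was at most 0.218 CPM. Some of those libraries also held much WNT5A. The mono-culture sections of conceptuses 5, 23 and 22 had 4.09, 2.72 and 1.92 CPM of WNT5A, with EOMES at 0.141, 0.218 and 0.0458 CPM. With the epiblast and mesoderm sum WNT5A had r = -0.47. The part of cell types in the WNT5A values was not tested.

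WNT11 differed more between single conceptuses than between cultures. It ran from 12.6 to 63.0 CPM (median 25.3) in IVP co-culture, against 15.7, 26.9, 20.7, 29.7 and 53.99 CPM in IVP mono-culture, and from 11.0 to 228.9 CPM (median 28.2) in IVD co-culture, against 24.2 to 93.6 CPM (median 38.7) in IVD mono-culture. Conceptus 50 had the highest value in each IVD culture, with 228.9 CPM on endometrium, against 93.6 CPM without, and it also had the highest hypoblast sum of IVD co-culture (9134 CPM). The adjusted p of WNT11 was at least 0.498 in the 6 comparisons made, and the mean CPM was higher in co-culture in 4 of 11 conceptuses.

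WNT16 was a rare transcript in conceptus tissue, and only conceptus 62a held over 1 CPM of it in both cultures. It was at 9.23 CPM in the co-culture section of conceptus 62a, against 4.38 CPM in its mono-culture section, and at 0.679 CPM in the co-culture section of conceptus 66, against 5.53 CPM in its mono-culture section. The other 6 IVP co-culture libraries ran no higher than 0.613 CPM, against 0.614, 0.408, 1.43 and 0.861 CPM in the other mono-culture libraries (replicates 1, 2, 4 and 5). In IVD tissue the range was 0 to 0.679 CPM (median 0.0683) in co-culture, against 0 to 5.53 CPM (median 0.206) in mono-culture. Counts of 0 in IVD co-culture replicates 4 and 9 and IVD mono-culture replicate 1 allow up to 0.0394, 0.0449 and 0.0385 CPM.

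The mean CPM of WNT16 was lower on endometrium in 9 of 11 conceptuses, but the edgeR test without a block did not pass. The log2 fold change was -2.37 (SE 1.10; adjusted p = 0.188) for IVD co-culture against IVD mono-culture and -0.85 (adjusted p = 0.673) without IVD mono-culture replicate 7, the section of conceptus 66. Averaged over both types it was -1.15 (SE 0.82; adjusted p = 0.339). In that average, with a block for conceptus it was -1.36 (adjusted p = 0.0408), and with counts summed per conceptus and culture it was -0.72 (adjusted p = 0.662). For IVP co-culture against IVD co-culture it was 3.29 (SE 1.15; adjusted p = 0.236), and 0.90 (adjusted p = 0.760) without the co-culture section of conceptus 62a. In that comparison 0.0251% of genes passed and 0 of the 8 Wnt genes. An unadjusted p under 0.05 was found for 1 of the 8 and for 2170 of the 15942 genes. DESeq2 called 0 of the 8 and 152 of all genes.

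**Figure D3:**
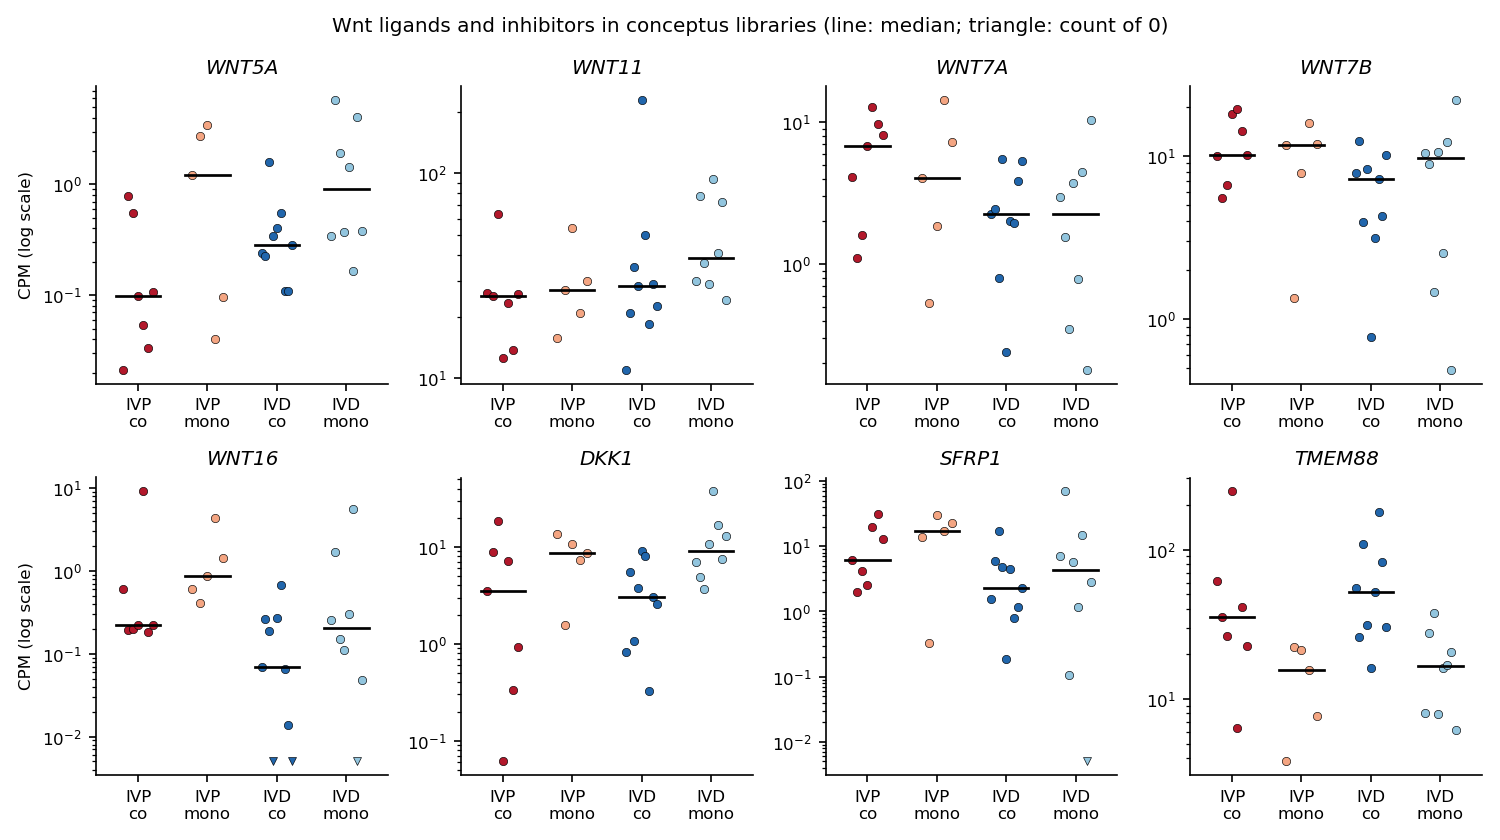
CPM on a log scale of the 8 genes with a row in the conceptus table, for IVP co-culture (7 libraries), IVP mono-culture (5), IVD co-culture (9) and IVD mono-culture (8). Points are libraries, lines are medians and triangles are counts of 0. TMEM88 sits higher in co-culture than in mono-culture for both conceptus types, with 6 of 7 IVP co-culture libraries above every IVP mono-culture library, and the other genes overlap more widely.

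TMEM88, the inhibitor that acts inside the cell, rose on endometrium and was the only one of these genes to pass the edgeR test in 2 comparisons. It ran from 6.37 to 246.4 CPM (median 35.1) in IVP co-culture, against 3.81, 22.4, 15.7, 7.67 and 21.2 CPM in IVP mono-culture replicates 1 to 5. In IVD tissue it ran from 16.0 to 178.8 CPM (median 51.7) in co-culture, against 6.19 to 37.8 CPM (median 16.6) in mono-culture. Of the IVP co-culture libraries 6 of 7 stood above every IVP mono-culture library, the exception being the section of conceptus 62a, and of the IVD co-culture libraries 5 of 9 stood above every IVD mono-culture library.

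For IVD co-culture against IVD mono-culture the log2 fold change of TMEM88 was 2.14 (SE 0.60; adjusted p = 0.0348). It was the only one of the 8 Wnt genes to pass, where 6.33% of all genes passed, 3.11% higher and 3.22% lower. For IVP co-culture against IVP mono-culture it was 2.58 (SE 0.76; adjusted p = 0.142), and there 0% of the 15942 genes passed in edgeR (2914 had an unadjusted p under 0.05, and DESeq2 called 321). Among the 8 Wnt genes 2 had an unadjusted p under 0.05, and DESeq2 called TMEM88 alone (2.61, adjusted p = 0.0292). Averaged over both types it was 2.36 (SE 0.49; adjusted p = 0.00268), a call that held in each of the 8 other settings and without each single library or conceptus (adjusted p of at most 0.0268).

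The IVD call of TMEM88 was less firm. It did not hold with conceptus as block (2.10, adjusted p = 0.0801), nor in 8 of the 29 fits that left out 1 library (IVD mono-culture replicates 1, 2, 5, 6, 7 and 8 and IVD co-culture replicates 7 and 8; adjusted p of at most 0.0838) or in 6 of the 13 that left out 1 conceptus (5, 8, 26, 47, 66 and 71; at most 0.103), with the log2 fold change between 1.75 and 2.40 throughout. The difference between the IVP and the IVD response was tested as well: 0% of genes passed, and the 8 Wnt genes had adjusted p-values of 0.9999. Of the 8, 0 had an unadjusted p under 0.05 (281 of all genes), and DESeq2 called 0 (0 of all genes). The comparison of IVP mono-culture with IVD mono-culture also had 0% of genes past the FDR. There 0 of the 8 Wnt genes had an unadjusted p under 0.05 (331 of all genes), and DESeq2 called 0 (1 of all genes).

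Within conceptuses the mean CPM of TMEM88 was higher on endometrium in 9 of 11. In proportion, the largest gaps were in conceptus 24 (44.1 CPM on endometrium, against 3.81 CPM without), conceptus 47 (57.0 against 7.90 CPM) and conceptus 8 (55.3 against 8.00 CPM). Conceptus 50 was level (16.0 CPM on endometrium, against 16.2 CPM without). Conceptus 62a went the other way, with 6.37 CPM on endometrium, against 15.7 CPM without. Of the red cell markers 2 of 3 were higher past the FDR in IVD tissue. Their sum had a median of 33.1 CPM in IVD co-culture, against 3.55 CPM in IVD mono-culture, and 19.6 against 16.1 CPM in IVP tissue. ALAS2, of the same list, went the other way. Its median was 0.601 CPM in IVD co-culture, against 2.48 CPM in IVD mono-culture, and 0.770 against 10.4 CPM in IVP tissue. The endothelial sum had medians of 22.7 CPM in IVD co-culture, against 16.5 CPM in IVD mono-culture, and 12.0 CPM in IVP co-culture, against 14.4 CPM in IVP mono-culture. After removal of group means, TMEM88 had r = 0.19 with the red cell sum and 0.11 with the endothelial sum over the 29 conceptus libraries. Whether red cells or endothelium have a part in the TMEM88 values was not tested.

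DKK1, the inhibitor that occupies LRP5 and LRP6, was lower on endometrium in most conceptuses but did not pass the test. It ran from 0.0610 to 18.5 CPM (median 3.46) in IVP co-culture, against 13.4, 1.57, 7.37, 8.55 and 10.8 CPM in IVP mono-culture replicates 1 to 5. In IVD tissue it ran from 0.326 to 9.09 CPM (median 3.03) in co-culture, against 3.65 to 37.7 CPM (median 9.13) in mono-culture. Of the IVD co-culture libraries 5 of 9 lay below every IVD mono-culture library.

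The log2 fold change of DKK1 was -1.58 (SE 0.70; adjusted p = 0.165) for IVD co-culture against IVD mono-culture and -0.45 (SE 0.83; adjusted p = 0.817) for IVP co-culture against IVP mono-culture. Averaged over both types it was -1.01 (SE 0.54; adjusted p = 0.188), and -1.51 (adjusted p = 0.0359) in limma voom with a random effect of conceptus, whereas counts summed per conceptus and culture gave -0.92 (adjusted p = 0.218). The mean CPM of DKK1 was lower on endometrium in 10 of 11 conceptuses. The exception was conceptus 23, whose 2 sections on endometrium differed most of all, with 8.78 and 0.0610 CPM, against 1.57 CPM without.

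**Figure D4:**
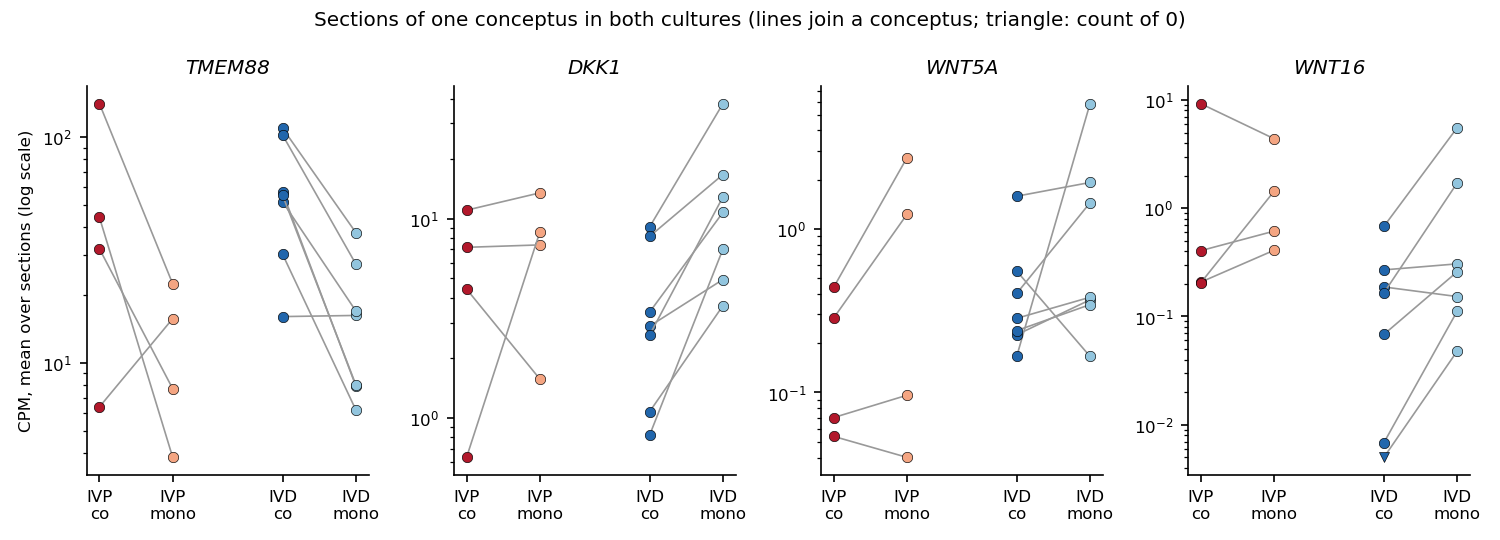
CPM (log scale) of TMEM88, DKK1, WNT5A and WNT16 in conceptuses with sections in both cultures, as the mean over the sections of a conceptus; lines join a conceptus, and a triangle is a count of 0. TMEM88 was higher in co-culture in 9 of 11 conceptuses, and DKK1, WNT5A and WNT16 were lower in 10, 9 and 9 of 11.

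TMEM88 and DKK1 went in opposite directions across sections. After removal of group means their log2 CPM had r = -0.68 over the 29 libraries (Spearman -0.57), and -0.50 without the 2 libraries farthest from the median of DKK1. Only 5 conceptuses had 2 sections on endometrium of different uteri, and this comparison was chosen after the values were seen. Conceptus 23 had 246.4 CPM of TMEM88 and 0.0610 CPM of DKK1 on uterus 39, and 35.1 and 8.78 CPM on uterus 14. Conceptus 26 had 178.8 CPM of TMEM88 and 0.326 CPM of DKK1 on uterus 39, and 25.8 and 5.44 CPM on uterus 14. Conceptus 24 had the opposite order of uteri, with 26.3 CPM of TMEM88 and 18.5 CPM of DKK1 on uterus 39, and 61.9 and 3.46 CPM on uterus 14. In conceptuses 47 and 62b as well, the section with more TMEM88 had less DKK1, so that the order was opposite in 5 of 5.

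**Figure D5:**
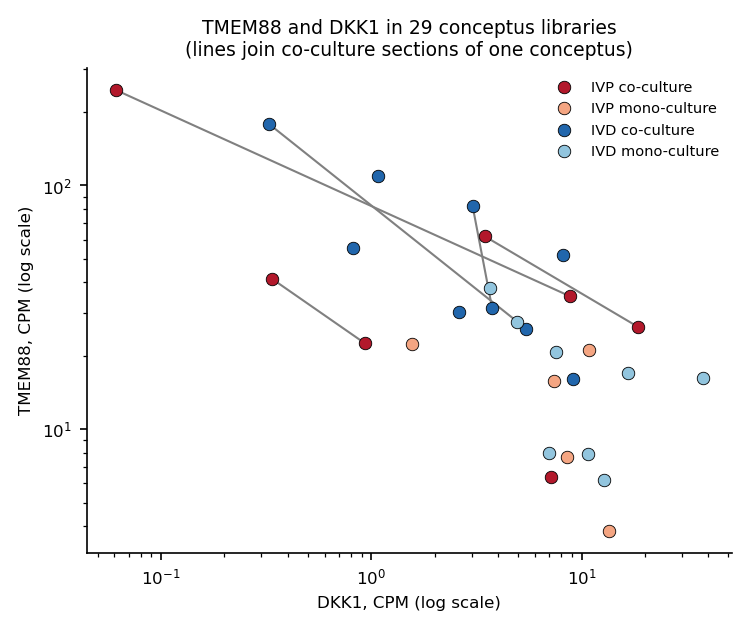
TMEM88 against DKK1 in the 29 conceptus libraries, both in CPM on log scales, with points coloured by culture group and lines joining the 2 co-culture sections of conceptuses 23, 24, 26, 47 and 62b. All 5 lines slope down from upper left to lower right, and the library at the upper left has 246.4 CPM of TMEM88 and 0.0610 CPM of DKK1.

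SFRP1 varied over a wide range in conceptus tissue and passed no test. It ran from 2.00 to 31.3 CPM (median 6.20) in IVP co-culture, against 13.8, 0.327, 17.1, 22.6 and 30.4 CPM in IVP mono-culture. In IVD tissue it ran from 0.188 to 17.2 CPM (median 2.32) in co-culture, against 0 to 70.4 CPM (median 4.34) in mono-culture, where the count of 0 in replicate 1 allows up to 0.0385 CPM. The top value belonged to the mono-culture section of conceptus 26, which was also highest for FOXF1 (21.4 CPM, against at most 3.13 CPM in every other conceptus library) and EOMES of the epiblast and mesoderm markers. HAND1, of the same list, was at 189.5 CPM there and as high as 726.3 CPM elsewhere, and the list summed to 360.5 CPM there, against 730.2 CPM in IVP co-culture replicate 7, the highest. The part of these cells in the SFRP1 values was not tested. The log2 fold change was -1.39 (SE 0.96; adjusted p = 0.402) for IVD co-culture against IVD mono-culture and 0.01 (adjusted p = 0.997) without conceptus 26. For IVP co-culture against IVD co-culture it was 1.75 (SE 0.99; adjusted p = 0.438).

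The pathway around these genes was read from a wider list. Of 77 listed genes of Wnt export, reception and response, 66 were tested. Past the FDR were 0 higher and 1 lower for IVD co-culture against IVD mono-culture (3.11% and 3.22% of all genes), 0 and 0 for IVP co-culture against IVP mono-culture (0% of all genes), and 0 and 4 in the average (9.16% and 9.69% of all genes), where the median log2 fold change was -0.10 beside -0.04 over all genes. None of the 9 tested other ligands, the 10 other secreted inhibitors, the 6 genes of the R-spondin arm or the 6 feedback and target genes (AXIN2, NKD1, NKD2, SP5, MYC, CCND1) passed in those 3 comparisons.

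The 4 genes that passed were lower on endometrium. ROR1, a receptor of WNT5A, averaged 2.14 ± 1.14 CPM in IVP co-culture (SD, n = 7), against 7.58 ± 6.86 CPM in IVP mono-culture (SD, n = 5), and 2.82 ± 1.57 CPM in IVD co-culture (SD, n = 9), against 9.18 ± 7.05 CPM in IVD mono-culture (SD, n = 8). Its log2 fold change was -1.51 (SE 0.32; adjusted p = 0.00336) in the average and -1.54 (SE 0.42; adjusted p = 0.0302) in IVD tissue, where it was -1.11 (adjusted p = 0.0651) with a block for conceptus. The IVD call of ROR1 was also lost without any one of IVD mono-culture replicates 1, 4 and 6 and IVD co-culture replicates 1, 7 and 8, or of conceptuses 5, 8, 26, 47 and 71 (adjusted p of at most 0.0970). FZD5, a frizzled receptor, fell by 1.10 (SE 0.34; adjusted p = 0.0264) on the log2 scale, VANGL1, a planar polarity protein, by 0.61 (SE 0.18; adjusted p = 0.0187), and APC, a scaffold of the beta-catenin destruction complex, by 0.65 (SE 0.15; adjusted p = 0.00404), all in the average. The VANGL1 call did not hold with a block for conceptus (-0.56, adjusted p = 0.0736), nor without conceptuses 24, 37 or 62b (at most 0.0833), and the FZD5 call did not hold without conceptuses 24 or 62b (at most 0.120). Fits of ROR1 and APC in the average kept an adjusted p under 0.05 in every alternative run.

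In endometrium the crossed part of the design gave 8 libraries, in which conceptuses 23 and 24 were each laid on uteri 14 and 39 and conceptuses 62a and 62b on uteri 69 and 70. With 2 residual degrees of freedom, 0% of 17149 genes passed for the uterus (2711 at an unadjusted p under 0.05; 982 by DESeq2) and 0% for the conceptus (438; 16). Of the 9 Wnt genes 0 passed for the uterus, with 2 at an unadjusted p under 0.05 (WNT16 and SFRP1) and 3 by DESeq2 (WNT7A, WNT16 and SFRP1). For the conceptus 0 passed, with 1 at an unadjusted p under 0.05 (WNT16) and 0 by DESeq2.

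Of the 9 Wnt genes, WNT16 had the smallest unadjusted p for the uterus (0.000142 in the edgeR test). It was at 6.90 and 4.80 CPM on uterus 39, against 19.3 and 14.3 CPM on uterus 14, and at 4.12 and 6.39 CPM on uterus 70, against 18.1 and 22.6 CPM on uterus 69. The libraries of a uterus did not overlap with those of its partner, but how many of all genes do the same was not counted. The log2 differences were -1.63 (SE 0.25) for uterus 39 minus uterus 14 and -1.96 (SE 0.26) for uterus 70 minus uterus 69 (adjusted p = 0.141 for both together). SFRP1 was at 63.1 and 60.5 CPM on uterus 70, against 302.9 and 465.8 CPM on uterus 69, a log2 difference of -2.59 (SE 0.71), whereas uteri 39 (221.4 and 116.1 CPM) and 14 (81.7 and 358.1 CPM) overlapped (-0.20, SE 0.77; adjusted p = 0.290 for both together). WNT5A was likewise lower on uterus 70, with 9.57 and 9.80 CPM on uterus 70, against 50.6 and 84.6 CPM on uterus 69, and an adjusted p of 0.335 for both uterus pairs together. WNT7A was at 0.103 and 0 CPM on uterus 39, against 0.552 and 1.63 CPM on uterus 14, whereas uteri 70 (3.05 and 5.10 CPM) and 69 (6.26 and 1.297 CPM) overlapped (adjusted p = 0.321).

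WNT5A and SFRP1 varied together among endometrial explants. Over the 12 endometrial libraries, which share uteri and conceptuses, their log2 CPM had r = 0.92, and WNT16 had 0.74 with WNT5A and 0.70 with SFRP1. All 3 also went with the summed markers of endometrial stroma (7 genes, 1962 to 6398 CPM), with r of 0.87 for WNT5A, 0.93 for SFRP1 and 0.76 for WNT16. Sums of some other lists had r of similar size, but in this tissue they rested on few genes. The epiblast and mesoderm sum (median 149.5 CPM) was nearly all FOXF1 (median 147.9 CPM). With it r was 0.93 for WNT5A, 0.88 for SFRP1 and 0.69 for WNT16. The trophoblast sum (median 8.72 CPM) was mostly TFAP2C (4.09 CPM) and GATA3 (3.32 CPM), with TKDP1 at 0.0370 CPM. With it r was 0.81, 0.76 and 0.72. These sums therefore do not measure those cell types here, and which cells carry the 3 genes was not tested. SFRP4 had 0.60 with the stromal sum and 0.67 with SFRP1. TMEM88 had -0.70 with the summed epithelial markers (7 genes with a row, 140.8 to 574.2 CPM).

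In conceptus tissue the genes most like each member, by r over the 29 libraries after removal of group means and among 10676 genes, were as follows. WNT7A was closest to FAM234B (0.96), AKR1B1 (0.96) and ATP8A1 (0.95). WNT7B was closest to SH3BP5 (0.96), EPB41L3 (0.95) and PMEPA1 (0.95), the last of which was also among the 3 closest to SFRP1 (0.86, after KIF21B at 0.89 and before TMC8 at 0.85). WNT11 was closest to GJB1 (0.93), a gap junction protein, then LARP7 (0.84) and CALML4 (0.84). WNT5A was closest to PKD2 (0.86), ZNF215 (0.85) and SELENON (0.84), and WNT16 to ECM1 (0.82), MBD2 (0.80) and DHRS9 (0.78). DKK1 was closest to TMEM267 (0.82), PRLR (0.80), the prolactin receptor, and MFAP1 (0.79), and TMEM88 to ACTR8 (0.86), LMAN1 (0.82) and TMEM184B (0.79).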

How the data were processed

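Both deposited tables give unnormalized read counts for each gene. Per the submitters' processing notes and the study's methods, the authors trimmed reads with Trimmomatic, mapped conceptus reads with HISAT2 and endometrial reads with STAR, both on ARS-UCD1.2, and counted reads per gene by featureCounts. Versions of these programs and whether counting used strand are not given in the sources used here. Genes of low count had been removed from the conceptus table. The endometrial table also holds 28 columns that match no sample here and were not used.

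Counts of the 29 conceptus libraries were fitted in R 4.3.3 with edgeR 4.0.16 (filterByExpr with minimum count 10 and minimum total 15, TMM factors, a quasi-likelihood model with 1 mean per group, 15942 genes), with Benjamini-Hochberg adjustment over all genes and an FDR of 0.05. No block was used. Adjusted p-values for conceptus tissue come from this fit unless another tool, setting or left-out sample is named. Those for endometrium come from a separate edgeR fit of the 8 crossed libraries over 17149 genes. Log2 CPM used a prior count of 1. Scripts were tested on simulated data. Titles gave the groups, since the treatment given for IVP co-culture replicate 1 is medium only. The p-values treat sections as independent, although sections share conceptuses and uteri. No pair of libraries agreed within sampling noise.

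Column codes name the conceptus behind each section. With group means removed, the co-culture and mono-culture libraries of a conceptus had a correlation above 0.1 in 16 of 16 pairs (median 0.588), and 4 of 13 pairs with the same replicate number (median -0.317), so the conceptus was taken as the block of the paired alternative. Other alternatives were RLE size factors, no filter, 1 factor of unwanted variation, the title's replicate number as a block, limma 3.58.1 voom with a random conceptus effect, counts summed per conceptus, DESeq2 1.42.0, and leaving out each library or conceptus. The 9 genes, the pathway and marker lists and the tests were chosen with earlier results of these data known. From each pathway list, up to 4 genes past the FDR are named, and for each of the 8 genes the 3 most alike among named genes whose mean log2 CPM is 1 or more.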

Additional observations from a re-analysis of the deposited data

Results flagged for a closer look

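In 12 of 32 combinations of gene and culture group, the highest library stood far from the others by Dixon's test. For normally distributed values chance alone does so in about 1 of 20. The test was run on CPM without log scaling, so that rate may not apply and no excess over chance is read here. Conceptus 62a held the top WNT16 values in IVP co-culture (9.23 CPM, next 0.613) and IVP mono-culture (4.38 CPM, next 1.43), and conceptus 66 those in IVD co-culture (0.679 CPM, next 0.269) and IVD mono-culture (5.53 CPM, next 1.71). Conceptus 22 stood apart in IVD co-culture for WNT5A (1.59 CPM, next 0.552) and SFRP1 (17.2 CPM, next 5.93). Conceptus 50 stood apart for WNT11 in IVD co-culture (228.9 CPM, next 49.9) and for DKK1 in IVD mono-culture (37.7 CPM, next 16.6). The others were WNT7A in IVD mono-culture (conceptus 71, 10.3 CPM, next 4.47), SFRP1 in IVD mono-culture (conceptus 26, 70.4 CPM, next 15.1), WNT11 in IVP co-culture (conceptus 24, 63.0 CPM, next 26.1) and TMEM88 in IVP co-culture (conceptus 23, 246.4 CPM, next 61.9).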

How the results depend on the processing

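The count of 1 Wnt gene past the FDR for IVD co-culture against IVD mono-culture became 0 with the conceptus as a replicate block and 0 with the title's replicate number as a block, and ran from 0 to 1 when single libraries or conceptuses were left out; TMEM88 then had 2.10 (adjusted p = 0.0801) and 2.17 (adjusted p = 0.0750) under the 2 blocks. The count of 0 for IVP co-culture against IVP mono-culture became 1 with DESeq2, and that of 0 for IVP co-culture against IVD co-culture became 1 with 1 factor of unwanted variation. In the average of both types the count of 2 became 1 with the title's replicate number as a block and 3 with 1 factor of unwanted variation (WNT7A added), and ran from 1 (without conceptus 26) to 3 (without IVP co-culture replicate 5, WNT16 added) when a library or conceptus was left out. WNT5A had -2.04 (adjusted p = 0.0661) there and -1.52 (adjusted p = 0.0745) in limma voom with a random effect of conceptus. Besides the calls given for TMEM88, WNT5A, WNT16, ROR1 and VANGL1, the conceptus block changed no call of a gene named above.

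In IVD tissue SFRP1 changed sign to 0.0276 in limma voom with a random effect of conceptus, and without single libraries or conceptuses ran from -2.18 to 0.0119. DKK1 in IVP tissue ran from -1.10 to 0.0503, with the positive value without conceptus 62b. WNT16 in the average was -2.34 (adjusted p = 0.0321) without the co-culture section of conceptus 62a. For the uterus in endometrium the count of 0 became 1 without the filter on low counts (26 of all genes passed) and 3 with DESeq2 (982 of all genes). For the conceptus it stayed at 0 in both settings. Both counts changed in some fits that left out a single library. Such a fit keeps 1 library of a uterus and 1 residual degree of freedom, so its counts are not given. Without any one of endometrium replicates 4, 5, 6 and 7, a gene of uteri 14 and 39 rests on the spread of uteri 69 and 70. The SFRP1 difference of uterus 39 minus uterus 14 ran from -1.79 to 1.40 when single libraries were left out. The cause of these shifts was not tested. Medians of the levels in both tissues moved by less than 1 SD when the totals were taken over the 16084 genes in both tables or scaled by TMM. Low counts limit WNT5A and WNT16 in conceptus tissue.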
